A study of Mus musculus with 12 samples.

Results

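The genes of the kainate receptor subunits, Grik1, Grik2, Grik3, Grik4 and Grik5, and of their auxiliary proteins, Neto1 and Neto2, were followed in RNA sequencing of mouse striatum. The 7 members were taken by gene symbol from a count table of 57132 features, and each symbol matched 1 feature. The animals were C57Bl/6 littermates aged 10 months, 6 TAAR5-KO and 6 wild type (WT). TAAR5 is an olfactory trace amine receptor. The labels name no other allele and no agent in either group, and how the knockout allele was made is not given in the sources used here. The study used 3 males and 3 females per genotype, but no library is tied to a sex or to an animal. The tissue was the slice of striatum left after removal of the cortex, its total RNA was depleted of ribosomal RNA, and directional libraries were read single-end over 100 bases.

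Kainate receptors are tetrameric glutamate-gated cation channels that act on both sides of the synapse, where they carry slow excitatory currents and tune transmitter release. The subunits GluK1, GluK2 and GluK3 (Grik1 to Grik3) bind glutamate with low affinity and can form channels by themselves. GluK4 and GluK5 (Grik4 and Grik5) bind it with high affinity and need a partner of the first class to reach the surface as working receptors. Neto1 and Neto2 are single-pass membrane proteins with CUB domains that slow the gating of kainate receptors and raise their agonist affinity, and Neto1 also associates with NMDA receptors. In the striatum, kainate receptors are found in spiny projection neurons, in interneurons and on the terminals of excitatory afferents.

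The 5 subunits share a motif of their channel. The coding bases that lead up to it are shown, with the low-affinity and the high-affinity class side by side. They cover only part of the pore. Each sequence runs on the coding strand, 5′ to 3′, from the start of a coding exon to the end of a motif of 9 residues that closes the third membrane segment, and capitals mark the 27 bases of that motif. All coordinates are on GRCm39, and the bases come from that genome with the coding frame of GENCODE.
Grik1 (chr16:87732897-87733003, minus strand): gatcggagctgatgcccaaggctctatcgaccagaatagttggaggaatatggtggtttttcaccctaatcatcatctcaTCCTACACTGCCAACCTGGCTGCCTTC
Grik2 (chr10:49116786-49116892, minus strand): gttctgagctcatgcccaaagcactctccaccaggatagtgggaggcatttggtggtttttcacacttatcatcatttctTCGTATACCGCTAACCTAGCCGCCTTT
Grik3 (chr4:125587755-125587861, plus strand): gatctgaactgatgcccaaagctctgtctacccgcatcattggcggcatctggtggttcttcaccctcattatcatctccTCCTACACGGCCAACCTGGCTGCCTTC
Grik4 (chr9:42455165-42455219, minus strand): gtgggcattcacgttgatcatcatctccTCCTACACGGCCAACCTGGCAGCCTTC
Grik5 (chr7:24715344-24715398, minus strand): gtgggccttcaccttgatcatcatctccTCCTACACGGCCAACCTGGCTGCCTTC
In these exons the low-affinity subunits have 107 bases up to the end of the motif and the high-affinity subunits have 55. Over the last 55 bases, Grik4 and Grik5 were identical at 94.5% of positions, and Grik2 shared 72.7% with either of them. Low-affinity Grik3 shared 90.9% with Grik5 and 85.5% with Grik4, and Grik1 shared 87.3% and 83.6%. Over 107 bases, Grik2 shared 79.4% with Grik1 and 75.7% with Grik3, while Grik1 and Grik3 shared 84.1%. Over the last 55 bases, identity across the classes thus reached 90.9%, close to the 94.5% within the high-affinity class. Identities within the low-affinity class were taken over 107 bases and cannot be set against these. The GC content of these stretches ran from 47.7% in Grik2 to 58.2% in Grik5, which is not that of the whole exons.

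Over all merged exons, the members fell apart in base composition. Grik2 had 37.6% GC, Neto2 38.1%, Neto1 39.6%, Grik1 43.5%, Grik4 52.2%, Grik3 54.2% and Grik5 59.6%. Coding bases were richer in GC than the remaining exon bases of the same gene. In Neto2 the coding bases had 42.8% GC and the remaining exon bases 36.5%, and in Grik2 these were 45.3% and 35.6%. In Grik5 they were 61.7% and 57.0%.

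The libraries held 11269915 to 34824450 counts, of which 64.3% to 88.0% were on ribosomal RNA features, so that 1819907 to 6399188 counts per library stood behind all other genes. Neither the total (two-sided exact permutation test over libraries, p = 0.130) nor the ribosomal share (p = 0.312, same exact test) separated the labels. Taar5 (chr10:23846604-23847617) had 16 counts in all libraries labelled TAAR5-KO together and 3 in those labelled WT, or 0.142 ± 0.0618 and 0.0224 ± 0.0382 CPM (counts per M counts of a library; SD, n = 6 each; p = 0.00649, two-sided exact permutation test). These counts go against the labels, 11 of the 12 libraries were at or under 3 counts, and each direction below is by label. The libraries carry the names NK1 to NK6 (labelled TAAR5-KO) and NK7 to NK12 (labelled WT). Levels are CPM on library sizes scaled by the trimmed mean of M-values (TMM), with factors between 0.375 and 2.47. Scaling by library size alone set the median log2 fold change over the 13902 tested features to -0.49, against -0.0061 with TMM, and every change below is relative to TMM.

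All 7 members passed the filter of 0.5 CPM in 3 libraries, for which CPM was taken on library sizes before TMM scaling. They were compared with edgeR's likelihood ratio test, adjusted by Benjamini-Hochberg over 13902 features. With a threshold of 0.1, 1 member was called: Neto2 was higher in the libraries labelled TAAR5-KO. Of all features tested, 1.65% were called in either direction and 0.957% were called higher. The other 6 members did not pass the test, at adjusted p-values of 0.263 to 0.940 by the same likelihood ratio test of edgeR. In bulk tissue, fewer cells of a type and less RNA per cell cannot be told apart, which holds for every difference given here.

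Of the auxiliary proteins, Neto2 (chr8:86363217-86427553, minus strand) is known from cerebellar granule cells and forebrain, where it lengthens kainate receptor currents. From the highest to the lowest library labelled TAAR5-KO it stood at 26.5 CPM (NK3), 23.5 (NK2), 23.3 (NK1), 22.5 (NK5), 22.1 (NK4) and 22.1 (NK6). With the label WT it stood at 20.6 CPM (NK10), 18.8 (NK9), 18.8 (NK7), 18.8 (NK8), 17.0 (NK12) and 16.3 (NK11). The groups did not overlap, with NK3 highest and NK11 lowest, and the nearest libraries of the 2 labels were NK6 and NK10. Of all features tested, 0.619% likewise had every library labelled TAAR5-KO above every library labelled WT. The group means, 23.3 ± 1.65 and 18.4 ± 1.55 CPM (SD, n = 6 each), differed by a log2 fold change of 0.35 (SE 0.085, 95% confidence interval 0.18 to 0.52), or 1.28-fold. Its adjusted p was 0.0118 by edgeR's likelihood ratio test, 0.0701 by its quasi-likelihood test (0.453% of features called) and 0.00311 by DESeq2, and it ranked 47th by p. Leaving out each library in turn kept the call in all 12 fits, with log2 fold changes of 0.32 to 0.39 and the highest adjusted p, 0.0909 by the likelihood ratio test, without NK11.

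Neto1 (chr18:86413077-86524843, plus strand), the more abundant of the pair, gave a similar size of difference with a wider spread. The libraries labelled TAAR5-KO fell into a higher set, NK1 at 52.8, NK2 at 52.5 and NK3 at 53.5 CPM, and a lower set, NK4 at 40.3, NK5 at 42.9 and NK6 at 41.9 CPM. Libraries labelled WT ran from 32.3 CPM in NK11 over a median of 40.3 to 45.04 in NK8. Thus 3 libraries labelled TAAR5-KO lay above all those labelled WT, and the others lay among them. The ribosomal RNA share was 86.6% to 88.0% in NK1 to NK3 and 73.8% to 81.9% in NK4 to NK6, and among libraries labelled WT NK9 and NK10, at 87.3% and 85.6%, had Neto1 at 42.9 and 34.4 CPM. The log2 fold change was 0.27 (SE 0.11), with an unadjusted p of 0.0166 and an adjusted p of 0.279 by edgeR's likelihood ratio test. With the ribosomal share as a covariate it was 0.23 (adjusted p = 0.547, likelihood ratio test), and that of Neto2 was 0.31 with an adjusted p of 0.0698 (likelihood ratio test).

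**Figure D1:**
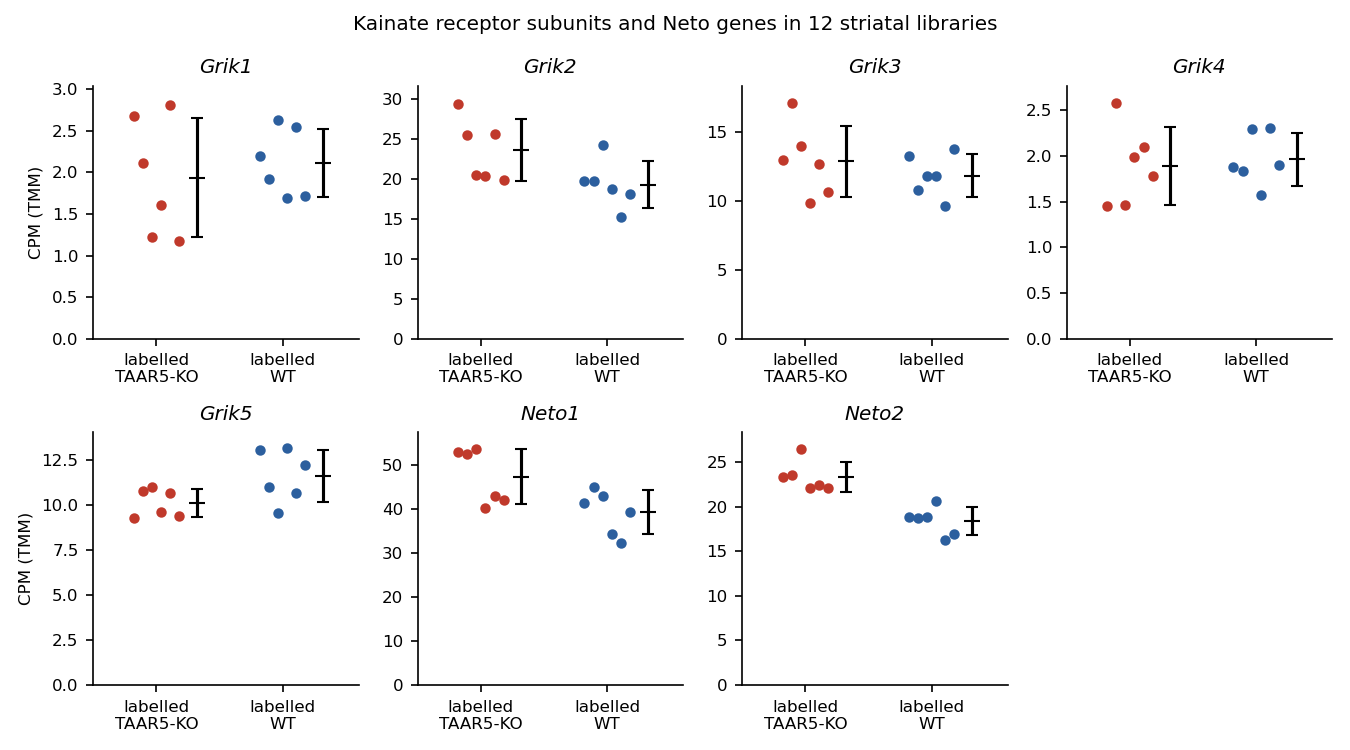
Level of each member (CPM on TMM library sizes, vertical axes from 0) in the 6 libraries labelled TAAR5-KO (red) and the 6 labelled WT (blue), in the order NK1 to NK6 and NK7 to NK12; bars are mean ± SD. For Neto2 the red points (22.1 to 26.5) all lie above the blue ones (16.3 to 20.6), whereas the points of the other 6 members overlap.

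Among the low-affinity subunits, Grik2 (chr10:48970929-49664862, minus strand), which codes for the subunit of most kainate receptors of principal neurons, had the largest difference. With the label TAAR5-KO it stood at 29.4 CPM (NK1), 25.6 (NK5), 25.6 (NK2), 20.5 (NK3), 20.4 (NK4) and 19.9 (NK6). With the label WT it stood at 24.2 CPM (NK9), 19.8 (NK8), 19.8 (NK7), 18.7 (NK10), 18.1 (NK12) and 15.2 (NK11). Of the libraries labelled WT, 5 lay below all those labelled TAAR5-KO, and NK9 lay among them. The means of 23.6 ± 3.87 and 19.3 ± 2.94 CPM (SD, n = 6 each) differed by a log2 fold change of 0.29 (SE 0.12; unadjusted p = 0.0146, adjusted p = 0.263 by edgeR's likelihood ratio test). Without NK9, the log2 fold change was 0.37 and the adjusted p 0.0929 by the likelihood ratio test, so that this 1 library decides on which side of the threshold Grik2 falls. In that fit, calls rose over the whole table, to 330 of 13898 features against 229 of 13902 with all libraries.

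Grik3 (chr4:125384493-125607966, plus strand), whose subunit has the lowest glutamate sensitivity of its class, ran from 9.86 CPM in NK4 to 17.1 in NK2 with the label TAAR5-KO and from 9.62 in NK11 to 13.8 in NK12 with the label WT. NK2 and NK3, both labelled TAAR5-KO, lay above all libraries labelled WT, and the rest overlapped, with a log2 fold change of 0.11 (SE 0.13, 95% confidence interval -0.15 to 0.36). Grik1 (chr16:87692788-88087153, minus strand), the subunit typical of interneurons and sensory neurons, was far lower, at 14 to 76 counts per library. Its libraries ran from 1.18 CPM in NK6 to 2.81 in NK5 with the label TAAR5-KO and from 1.69 in NK10 to 2.63 in NK9 with the label WT. The log2 fold change of Grik1 was -0.13 (SE 0.23, 95% confidence interval -0.58 to 0.32), an interval that at these counts leaves room for a difference in either direction.

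Of the high-affinity subunits, Grik5 (chr7:24709274-24771771, minus strand) is the one found in most brain kainate receptors. With the label TAAR5-KO it stood at 10.96 CPM (NK3), 10.8 (NK2), 10.7 (NK5), 9.62 (NK4), 9.40 (NK6) and 9.27 (NK1). Libraries labelled WT stood at 13.2 CPM (NK10), 13.1 (NK7), 12.2 (NK12), 10.96 (NK8), 10.6 (NK11) and 9.53 (NK9). Of the latter, 4 lay above all libraries labelled TAAR5-KO, while NK9 and NK11 lay within their range. The log2 fold change was -0.21 (SE 0.097), with an unadjusted p of 0.0318 and an adjusted p of 0.356 by edgeR's likelihood ratio test. Grik4 (chr9:42429431-42855789, minus strand), whose subunit is best known from the mossy fibre synapse of the hippocampus, had 13 to 84 counts per library. It averaged 1.89 ± 0.428 CPM with the label TAAR5-KO and 1.97 ± 0.289 with the label WT (SD, n = 6 each). The log2 fold change of Grik4 was -0.05 (SE 0.16, 95% confidence interval -0.37 to 0.26).

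Across the whole table, log2 fold changes went down as the GC content of the exons went up, and most members stood on the same side of 0 as their range of GC content. Neto2, Grik2 and Neto1, the members under 40% GC, had log2 fold changes of 0.35, 0.29 and 0.27, and Grik5, the richest in GC, had -0.21. Grik1, at 43.5% GC, and Grik3, at 54.2%, stood on the other side. The median log2 fold change was 0.18 over the 1242 features tested with under 40% GC, 0.070 at 40% to 45%, -0.00058 at 45% to 50%, -0.075 at 50% to 55% and -0.12 from 55% upward. Of the features under 40% GC, 79.9% had a log2 fold change above 0, against 27.1% of those from 55% upward. Calls of higher level were made for 4.35% of features under 40% GC, 1.53% at 40% to 45%, 0.593% at 45% to 50%, 0.15% at 50% to 55% and 0.161% from 55% upward, and 2.42% of those under 40% GC had groups that did not overlap with the label TAAR5-KO higher. Neto2 is thus to be read against 4.35%, not against 0.957%.

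A loess trend on GC content was fitted in each library to the log2 level of each feature minus its mean over the 12 libraries. The trend values are thus relative to the mean of both labels. A difference between labels that features of like GC content share is part of the trend and is removed with it. At the GC content of Neto2, this trend ran from -0.01 to 0.28 on the log2 scale in libraries labelled TAAR5-KO and from -0.26 to 0.083 with the label WT (p = 0.0152, n = 6 each, two-sided exact permutation test). Its difference between the GC content of Neto2 and that of Grik5 was highest in NK1, at 0.48, and lowest in NK12, at -0.45, and NK9, at 0.17, was the highest of the libraries labelled WT. NK9 was also the library labelled WT with the most Grik2 and the least Grik5. With each library's trend removed, the log2 fold change of Neto2 was 0.18 (SE 0.088, adjusted p = 0.525, likelihood ratio test), and 0 of the 7 members were called while 0.619% of all features were. In that fit, 1 of the 7, Neto2, had an unadjusted p under 0.05, at 0.0423, against 9.01% of all features, whereas without removal these were 4 of the 7 and 11.9%. Grik2 then stood at 0.11, Neto1 at 0.13, Grik5 at -0.07, Grik1 at -0.18 and Grik3 at 0.22, and Grik4 changed sign, from -0.05 to 0.02. The source of the trends with GC content was not tested.

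**Figure D2:**
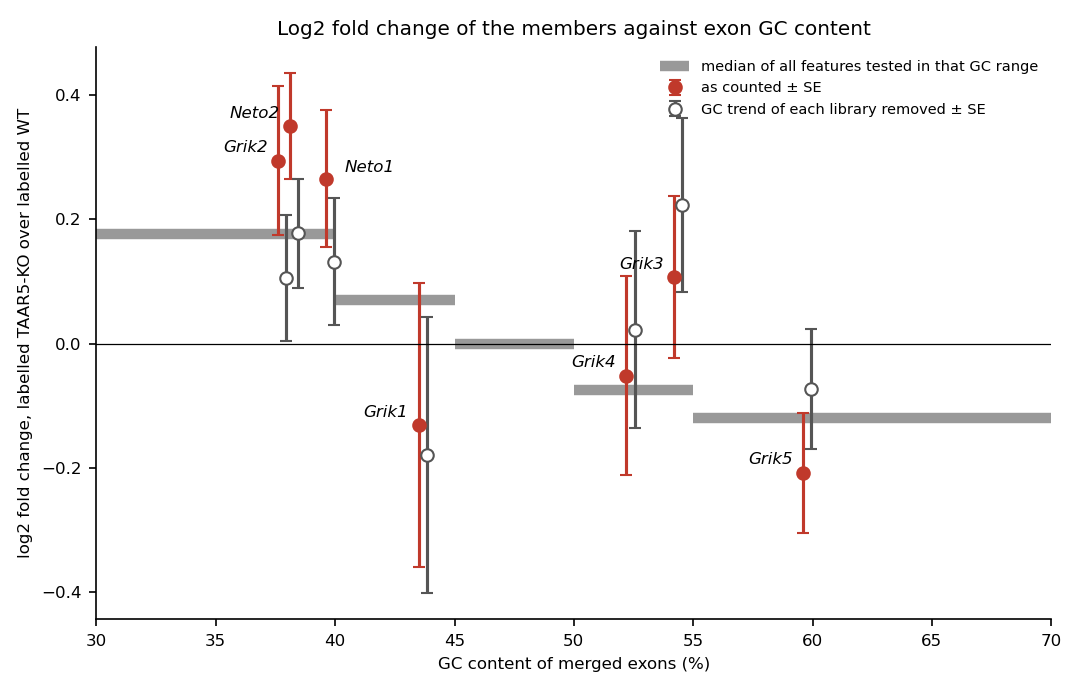
Log2 fold change (labelled TAAR5-KO over labelled WT, vertical axis) of the 7 members against the GC content of their merged exons (horizontal axis, %), as counted (filled red points ± SE) and with each library's GC trend removed (open points ± SE, drawn slightly to the right of their GC content); grey bars are the medians of all features tested in 5 ranges of GC content. The grey bars step down from 0.18 to -0.12, Neto2, Grik2 and Neto1 lie above the leftmost bar as counted, and the open point of Neto2 lies at 0.18.

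Levels of different genes were compared only after division by the length of the merged exons, as CPM per kilobase. On this scale Neto1 was highest, at 5.18 ± 0.817 CPM per kilobase (SD, n = 12), ahead of Neto2 at 3.40 ± 0.489, Grik5 at 2.10 ± 0.261, Grik2 at 1.62 ± 0.300, Grik3 at 1.38 ± 0.234, Grik4 at 0.324 ± 0.0587 and Grik1 at 0.302 ± 0.0838. Neighbours in this order were compared within each library by a two-sided exact sign-flip permutation test, adjusted over the 6 pairs. Neto1 exceeded Neto2 1.52-fold, Neto2 exceeded Grik5 1.62-fold and Grik3 exceeded Grik4 4.27-fold in 12 of 12 libraries each (exact permutation test, adjusted p = 0.000977 for each). Grik5 exceeded Grik2 1.31-fold in 11 of 12 libraries (exact permutation test, adjusted p = 0.00952) and Grik2 exceeded Grik3 1.17-fold in 10 of 12 (exact permutation test, adjusted p = 0.0158). In the libraries labelled TAAR5-KO alone, Grik5 and Grik2 did not differ beyond their spread (log2 ratio 0.15, exact permutation test, p = 0.219). Grik4 and Grik1 did not differ beyond their spread (1.10-fold, higher in 8 of 12 libraries, exact permutation test, adjusted p = 0.255). Without division by length Grik5 stood below Grik2, since the merged exons of Grik2 measure 13246 bases and those of Grik5 5168. Coding bases were 20.6% of the merged exons of Grik2 and 56.8% of those of Grik5. Which exons were in use was not tested, and the members differ in GC content. Both limit comparisons of levels per length between genes, here and in the shares below.

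**Figure D3:**
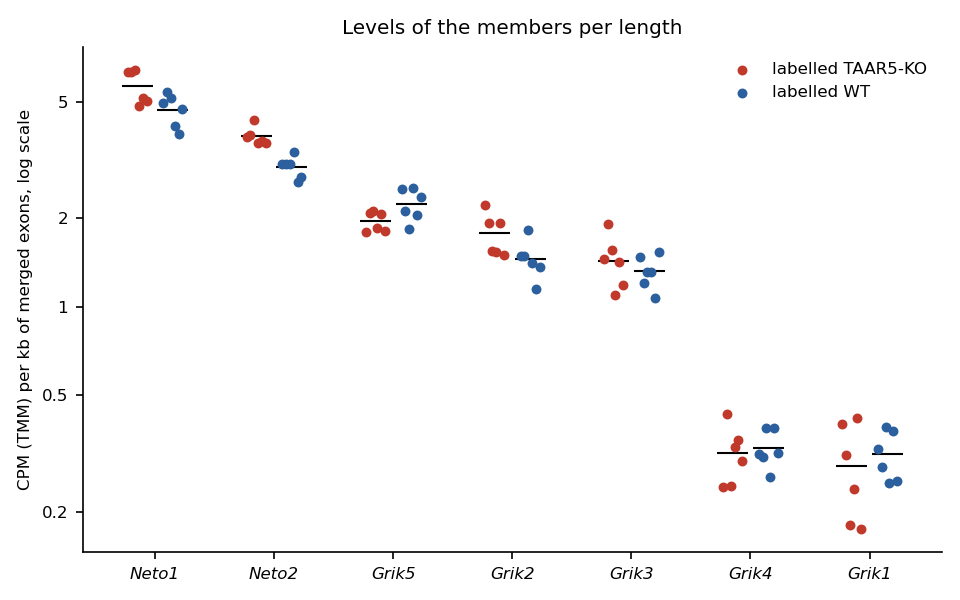
Level per length (CPM per kilobase of merged exons, log axis) of the 7 members in each library, ordered by their mean, for libraries labelled TAAR5-KO (red) and WT (blue); horizontal lines are group means. Neto1 (mean 5.18 over all libraries) and Neto2 (3.40) lie above the receptor subunits, and Grik4 (0.324) and Grik1 (0.302) lie together at the bottom.

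Among the subunits, the per-length levels summed to 100%, and Grik5, Grik2 and Grik3 made up most of the sum. Grik5 took 34.1% ± 3.302 of it with the label TAAR5-KO and 39.6% ± 4.05 with the label WT, Grik2 took 30.8% ± 3.06 and 25.7% ± 3.38, and Grik3 took 24.7% ± 2.75 and 23.3% ± 1.76 (SD, n = 6 each). Grik1 took 4.91% and 5.60%, and Grik4 5.51% and 5.87%. The channel-forming subunits Grik1 to Grik3 together ran from 56.8% to 66.6% with the label TAAR5-KO and from 51.5% to 61.3% with the label WT, so the groups overlapped.

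Ratios of members within a library, which do not depend on the scaling between libraries, were compared for 3 pairs. The Grik5 to Grik2 ratio per length was 1.37 (NK3), 1.21 (NK6), 1.21 (NK4), 1.08 (NK2), 1.07 (NK5) and 0.808 (NK1) with the label TAAR5-KO. Libraries labelled WT had 1.80 (NK10), 1.79 (NK11), 1.73 (NK12), 1.69 (NK7), 1.42 (NK8) and 1.01 (NK9). All but NK9 of the libraries labelled WT lay above all those labelled TAAR5-KO. The means were 1.12 ± 0.189 and 1.57 ± 0.310 (SD, n = 6 each), a difference of -0.48 on the log2 scale (two-sided exact permutation test, p = 0.0238, adjusted over the 3 ratios 0.0714), which missed the threshold of 0.05. Without NK9 it was -0.60, with an adjusted p of 0.0130 by the same exact permutation test, and without any other library the adjusted p lay between 0.0584 and 0.143. With each library's GC trend removed, it was -0.17 (exact permutation test, p = 0.143). Neto1 to Neto2 had a ratio of 1.49 ± 0.136 and 1.57 ± 0.199, and Grik4 to Grik5 one of 0.162 ± 0.0324 and 0.151 ± 0.0401 (SD, n = 6 each), with an adjusted p of 0.545 for either by the exact permutation test.

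**Figure D4:**
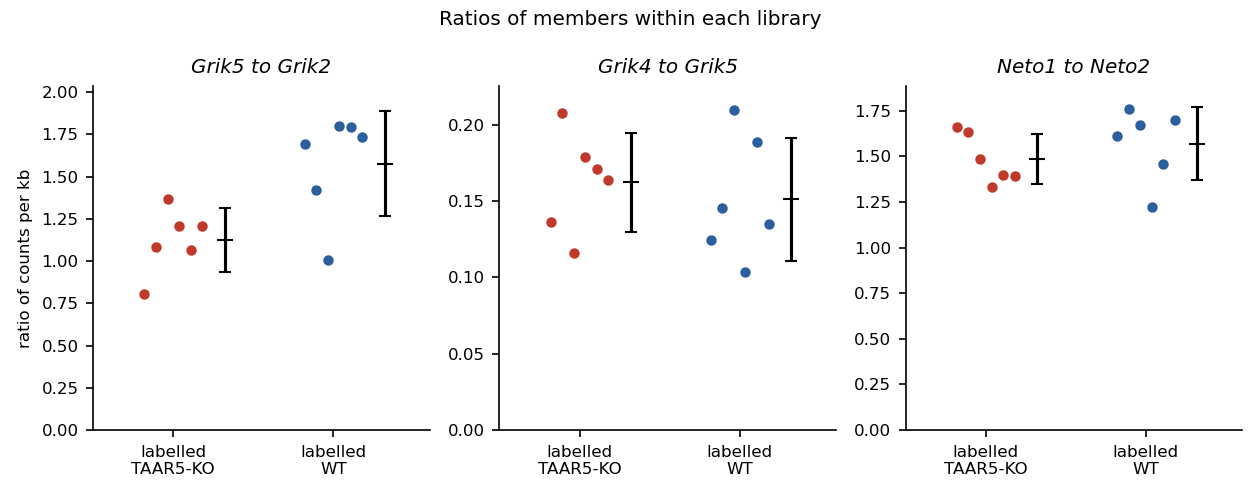
Ratio of the per-length levels of 2 members within each library (vertical axes from 0) for Grik5 to Grik2, Grik4 to Grik5 and Neto1 to Neto2, in libraries labelled TAAR5-KO (red) and WT (blue); bars are mean ± SD. In the left panel 5 blue points (1.42 to 1.80) lie above all red points (0.808 to 1.37) and NK9 lies among them at 1.01, and in the other panels the groups overlap.

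The levels of the members moved together only in part over the 12 libraries. As a description, Pearson's r of log2 CPM was 0.75 for Grik2 and Neto1, 0.73 for Neto1 and Neto2, 0.64 for Grik3 and Neto1, 0.61 for Grik2 and Neto2 and -0.45 for Grik2 and Grik5, and these libraries share the GC trends given above. The features most alike each member, among those with a mean of at least 50 counts, were named as a description with r over the same 12 libraries. For Neto2 these were Epb41 (0.94), which codes for a cytoskeletal protein of the membrane, Eif3e (0.93), a subunit of a translation initiation factor, and Cep126 (0.92), a centrosomal protein. Epb41 and Cep126 were also called, at log2 fold changes of 0.32 and 0.39 and adjusted p-values of 0.0808 and 0.0304 by edgeR's likelihood ratio test. They were picked over the same libraries with the difference between labels included, so these calls are no separate result. With genotype means removed, their r with Neto2 was 0.88 and 0.74. For Neto1 they were Ppp1r9a (0.97), coding for the spine protein neurabin, Akap11 (0.96) and Lmo7 (0.95). For Grik2 they were Gabrg3 (0.94), a GABA-A receptor subunit, Csmd3 (0.93), a large protein with CUB domains, and the noncoding RNA Rian (0.92). The most alike features of Grik5 were Slit2 (0.93), an axon guidance ligand, Slc25a22 (0.90), a mitochondrial glutamate carrier, and Dusp26 (0.88), and those of Grik3 were Glt1d1, Abi2 and Adcy3 (each 0.87). The low genes Grik1, with Nhs (0.93), Plxdc2 (0.88) and Elac1 (0.85), and Grik4, with Marchf8 (0.85), Tent4b (0.84) and Cnpy2 (0.82), rest on few counts.

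Of 24 genes for proteins that bind, place, modify or edit kainate receptors, all tested, 0 were called by edgeR's likelihood ratio test, its quasi-likelihood test or DESeq2, and 1 had an unadjusted p under 0.05 by the likelihood ratio test, as did 11.9% of all features tested. DESeq2 gave no adjusted p for 7009 of the 13902 features, and a missing value counted as not called. Their median log2 fold change was -0.0031, with 11 above and 13 below 0, against a median of -0.0061 over all features tested. Dlg4, coding for the postsynaptic scaffold PSD-95, had a log2 fold change of -0.18 (SE 0.11). Adarb1, coding for the enzyme that edits the glutamine/arginine site of the pore, had -0.11 (SE 0.11). C1ql3, coding for a secreted synaptic protein of a family that binds kainate receptors, had 0.13 (SE 0.30). C1ql2, of the same family and named here after its values were seen, had the lowest p of the list and differed by -1.32 on the log2 scale (SE 0.49, adjusted p = 0.153 by edgeR's likelihood ratio test), with very low levels of 0 to 0.372 CPM with the label TAAR5-KO and 0.219 to 0.555 with the label WT. Klhl17, coding for actinfilin, which directs GluK2 to degradation, had 0.21 (SE 0.27).

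The vesicular glutamate transporters load glutamate into synaptic vesicles, and their transcripts lie mainly in the cell bodies of the neurons that use them. Slc17a6 (VGLUT2, of thalamic and other subcortical neurons) ran from 1.49 CPM in NK2 over a median of 3.05 to 4.78 in NK4 with the label TAAR5-KO, and from 3.12 in NK12 over 5.68 to 12.5 in NK11 with the label WT. The groups overlapped, and NK11 stood far above the rest. On the log2 scale it differed by -0.93 (SE 0.29, adjusted p = 0.0969 by edgeR's likelihood ratio test and 0.232 by its quasi-likelihood test), and it was called in 4 of 12 fits that left out a library. Without NK11 it was -0.57, with an adjusted p of 0.374 (likelihood ratio test). With the GC trends removed it was -0.98, with an adjusted p of 0.0979 by the likelihood ratio test and 0.295 by the quasi-likelihood test. The likelihood ratio test called 0.691% of all features lower, and 0.23% with the GC trends removed. Slc17a7 (VGLUT1, of cortical neurons) had -0.19 (SE 0.30) and Slc17a8 (VGLUT3, in the striatum of cholinergic interneurons) 0.70 (SE 0.31, adjusted p = 0.325, edgeR's likelihood ratio test), neither of them called.

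Of 13 subunit genes of the other ionotropic glutamate receptors, 12 were tested and 1 was called by edgeR's likelihood ratio test. Grin2c, which codes for the GluN2C subunit of the NMDA receptor, stood at 1.95 to 2.60 CPM with the label TAAR5-KO and at 2.76 to 4.34 with the label WT. Its groups did not overlap, as held in this direction for 0.388% of all features tested, and the log2 fold change of Grin2c was -0.52 (SE 0.14, adjusted p = 0.0290 by the likelihood ratio test and 0.0943 by the quasi-likelihood test), where the likelihood ratio test called 0.691% of all features lower and 1.37% of those from 55% GC upward. The call of Grin2c was lost without NK2 (adjusted p = 0.102), NK11 (0.101) or NK12 (0.109), and with the ribosomal share as a covariate (0.111), each by the likelihood ratio test. With 62.0% GC it lay at the other end of base composition from Neto2, and with the GC trends removed it was -0.38 with an adjusted p of 0.204 (likelihood ratio test). Of the 12, 9 had log2 fold changes above 0, with a median of 0.13.

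The label striatum was checked against markers of spiny projection neurons, whose 5 general markers summed to 258 to 335 CPM with the label TAAR5-KO and to 151 to 287 with the label WT (two-sided exact permutation test, p = 0.0260, adjusted over 12 lists 0.0623), and no marker of these neurons was at 0 in any library. The 5 astrocyte markers summed to 130 to 172 CPM with the label TAAR5-KO and to 183 to 204 with the label WT, without overlap (exact permutation test, adjusted p = 0.0260). Markers of D1 neurons summed to 32.01 to 49.7 and 22.2 to 40.3 CPM, and those of D2 neurons to 98.2 to 120 and 62.0 to 107 CPM. Those of mature oligodendrocytes summed to 561 to 682 and 593 to 759 CPM, of their precursors to 9.74 to 13.7 and 11.3 to 14.8, and of microglia to 20.2 to 29.9 and 26.2 to 35.1. The adjusted p-values of these 5 lists lay between 0.0520 and 0.123 by the exact permutation test. Of single markers, edgeR's likelihood ratio test called 1 of 5 for astrocytes, Gja1 (log2 fold change -0.41, adjusted p = 0.0566). It also called 2 of 4 for microglia, P2ry12 (-0.36, adjusted p = 0.0767) and Csf1r (-0.36, adjusted p = 0.0913). That test called 0.691% of all features lower, and the quasi-likelihood test called none of these markers. DESeq2 called 1 of 5 general markers of spiny projection neurons, 1 of 5 for astrocytes, 1 of 5 for mature oligodendrocytes and 2 of 4 for microglia. Over the table DESeq2 called 177 of 13902 features. With the GC trends removed, the likelihood ratio test called 1 of 5 for astrocytes and 1 of 4 for microglia, against 0.619% of all features. NK11, the lowest of all 12 libraries in Neto1, Neto2, Grik2 and Grik3, was also the lowest in the general, D1 and D2 markers of spiny projection neurons. The part of these marker differences in the values of Neto2 and the other members was not tested.

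Markers of interneurons summed to 31.9 to 38.8 CPM with the label TAAR5-KO and 32.4 to 39.0 with the label WT, of cortical pyramidal neurons to 26.2 to 95.6 and 31.8 to 105, of endothelium to 3.70 to 5.40 and 3.72 to 5.32, of ependyma to 1.15 to 7.01 and 2.40 to 4.49, and of choroid plexus to 2.61 to 467 and 3.51 to 285. None of these 5 lists differed between the labels beyond the spread (exact permutation test, adjusted p of 0.795 to 0.974). The choroid plexus sum varied most from library to library in both groups.

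Exon overlaps and near-identical sequence of the members were listed from the annotation. How the authors treated reads with several matches is not given in the sources used here, so the counts that copied sequence adds to or takes from a member are not known. Neto1 shares 219 exon bases with the noncoding RNA Gm50384 on the other strand, which had at most 16 counts in a library. Neto2 shares 20 exon bases with Mir8109, which had at most 1 count. Matches to Neto2 of 100 to 120 bases, at 97% identity or more, lay in transcripts of 45 other genes, the overlapping Mir8109 among them. A longer match of 564 bases lay in Gm39214. Where in Neto2 these matches lie was not examined. Grik5 had matches of up to 145 bases in transcripts of 2 other genes, and Neto1 of up to 399 bases in 2, the overlapping Gm50384 among them. In Grik4, 59 exon bases overlap Gm55337, which had 0 counts in every library.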

How the data were processed

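Per the labels and the study's methods, the authors removed ribosomal RNA from total RNA, trimmed reads with cutadapt 4.1, aligned them to GRCm39 with STAR 2.7.11b and used featureCounts 2.0.6 to count reads per gene. The authors deposited raw counts per gene and library with the length of the merged exons, without normalization or pooling. Strand setting and treatment of reads with several matches are not given in the sources used here. The labels give the molecule as polyA RNA, whereas their protocol describes depletion of ribosomal RNA. No label ties the column names NK1 to NK12 to animals. Columns therefore entered as replicates of the genotype they name, and p-values measure the spread between these libraries. Another 12 per-library columns of counts stayed out.

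Features were kept with at least 0.5 CPM, on library sizes before TMM scaling, in at least 3 libraries. They were compared with glmFit and glmLRT of edgeR 4.0.16 (R 4.3.3) after TMM scaling, without covariates. The threshold was a Benjamini-Hochberg adjusted p under 0.1 over all 13902 features tested. The quasi-likelihood test of edgeR and DESeq2 1.42.0 were run beside this test. Standard errors and intervals come from the same fit. The scripts were tested on simulated data. Sums, ratios and trends, each with 1 value per library, were compared by exact two-sided permutation of the labels, whose smallest p is 0.00216 for 6 against 6, or by exact sign flips over 12 libraries, whose smallest p is 0.000488. Log2 CPM for correlations had a prior count of 2, and a 0 allows up to 3 counts.

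GC content was read from the GRCm39 genome over the exons of the deposited table for all 13902 features tested. GC and length trends were loess fits per library with a span of 0.5, removed through offsets. Coding frames, overlaps and near-identical transcripts came from GENCODE M39. The coding bases up to the channel motif stand in place of the protein stretches first planned, since protein sequences were not used here.

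The genes named were the members, Taar5, the 3 features most alike each member, 4 of the 24 kainate receptor partners, the vesicular glutamate transporters, overlapping features and called genes of the lists. The partner C1ql2 was added after its values were seen. The lists were 24 partners, 3 transporters, 13 other receptor subunits and 12 sets of cell type markers. Members and lists were chosen with earlier results of these data known. The alternatives were other tests, scalings, filters and thresholds, the ribosomal RNA features or share, the length and GC trends and leaving out each library. Removal of the GC trend from the ratios and together with the quasi-likelihood test was added after the data were seen.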

Additional observations from a re-analysis of the deposited data

Results flagged for a closer look

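In 60 groups of 6 libraries, the highest or lowest library was set apart when its gap to the nearest other, as a share of the range, was over Dixon's 95% critical value, which chance gives in about 1 in 20 groups. Neto2 in NK3, at 26.5 CPM, stood above the other libraries labelled TAAR5-KO. Without NK3 the log2 fold change of Neto2 was 0.32, with an adjusted p of 0.0479 by edgeR's likelihood ratio test. Adarb1 in NK1, at 30.3 CPM, stood above the other libraries labelled TAAR5-KO. With the label WT, NK11 stood apart 4 times, with Slc17a6 at 12.5 CPM above the others, and with the summed markers of D1 neurons at 22.2 CPM, of D2 neurons at 62.0 CPM and of spiny projection neurons in general at 151 CPM below them. NK12 had the lowest sum of mature oligodendrocyte markers with the label WT, 593 CPM.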

How the results depend on the processing

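No paired analysis was possible because the columns carry no animal numbers, only names that differ in every library. Of the 7 members, 1 was called in the likelihood ratio test and 0 with library size as the only scaling, without a filter, with the GC trend removed and with the GC trend removed under the quasi-likelihood test (0, 4, 1 and 1 members respectively at an unadjusted p under 0.05, against 0.942%, 7.84%, 9.01% and 9.16% of all features). Leaving out each library in turn gave 1 to 2 members called (2 without NK9, where Grik2 joined Neto2 at 0.37 and 330 of 13898 features were called). Features called over the table were 229, against 63 by the quasi-likelihood test, 7 with library size only, 93 without a filter, 98 with the ribosomal RNA share as a covariate, 86 with the GC trend removed, 28 with that under the quasi-likelihood test and 108 at an adjusted p under 0.05. Leaving out libraries gave 85 (NK11) to 415 (NK4) features. DESeq2 called 177, with 7009 of its adjusted p-values missing.

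Library size alone moved the median over all features to -0.49 (log2). Values above 0 turned sign with it, that of the called Neto2 among them (-0.14, adjusted p = 0.851, edgeR's likelihood ratio test). The others were Grik2 (-0.20), Grik3 (-0.51), Neto1 (-0.31), C1ql3 (-0.71), Klhl17 (-0.22) and Slc17a8 (-0.040). Relative to that median, Neto2 stood at 0.35, Grik2 at 0.29, Neto1 at 0.19 and Grik3 at -0.02. Grik4 turned to 0.022 with the GC trend removed (0.023 under the quasi-likelihood test) and Slc17a7 to 0.061 with the ribosomal covariate. When each library was left out in turn, Grik1 ran from -0.30 to 0.023 (above 0 without NK6), Grik4 from -0.12 to 0.0026 (above 0 without NK1, NK3 or NK11), C1ql3 from -0.080 to 0.28 (below 0 without NK2) and Slc17a7 from -0.34 to 0.0020 (above 0 without NK12). Neto2 kept its direction but not its call without a filter (0.33, adjusted p = 0.235), where 43668 features were tested, and with the GC trend removed (0.18). The Grik5 to Grik2 ratio ran from -0.60 to -0.39 when a library was left out. Without division by length, Grik5 over Grik2 turned to -0.97 and Grik4 over Grik1 to -0.037. In libraries labelled TAAR5-KO alone, the smallest exact p is 0.03125. Neto1 over Neto2 (0.57), Neto2 over Grik5 (0.96) and Grik3 over Grik4 (2.19) stood at this p (exact sign-flip test), with every library in the same direction. Adjusted over the pairs it became 0.0625, so they missed the threshold although no library went the other way. Grik5 over Grik2 (0.15) and Grik2 over Grik3 (0.32) also missed it, as did Grik2 over Grik3 (0.14) in those labelled WT. With the label TAAR5-KO, Grik5 over Grik2 (exact sign-flip test, p = 0.219) and Grik2 over Grik3 (p = 0.0625, same test) were not at that smallest p. Grik4 over Grik1 ran from 0.078 to 0.21 when a library was left out and passed without NK1. Of the 3 features most alike each member, Spearman's correlation kept 0 to 2 and removal of genotype means 1 to 2. Grik1 and Grik4 rest on 13 to 84 counts per library. Grin2c was also not called without a filter (-0.55, adjusted p = 0.148). Where no value is named for it, the cause of a change was not tested.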
